A study of Aspergillus oryzae with 20 samples.

Results

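The 4 secreted proteases for which koji is best known were followed in messenger RNA of Aspergillus oryzae strains that lacked genes for ADAM-type metalloproteases. The genes were chosen by name and not by a rule on measured values, though earlier results of these data were known. They are 4 of the 12074 genes listed in each library. alpA (AO090003001036) is the alkaline serine protease and pepA (AO090120000474) an acid protease of the aspartic type. nptA (AO090011000036) is neutral protease I and nptB (AO090001000135) neutral protease II or deuterolysin. These names came with the gene list, since the RefSeq table of assembly ASM18445v3 gives none of the 4 a symbol. All 4 strains had the RIB40 background and were labelled as lacking the native pyrG and carrying pyrG and ligD. Strain ∆admA∆admB lacked admA and admB, strain ∆admA lacked admA, strain ∆admB lacked admB, and Deletion-control kept both. Every strain was grown for 72 h at 30 °C on 76.5 g of wheat bran medium in a 1 L flask and was sequenced in 5 libraries, 20 in all. Whether each of the 5 had a flask of its own is not stated, so the p-values below refer to spread between libraries that may be only technical.

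Koji is grain or bran overgrown by the fungus, and in soy sauce and miso making its secreted endopeptidases cut the substrate's proteins into peptides, which exopeptidases then shorten to amino acids. The alkaline protease is the most abundant of these enzymes in soy sauce koji, the acid protease works at the low pH reached later in a mash, and the neutral proteases are zinc enzymes, deuterolysin being a small, heat-stable one. Their genes are under broad control by nitrogen and carbon source, pH and the regulator PrtR, for which no symbol was matched here and which was not analysed.

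Values are RPKM, scaled for gene length and library size. The summed RPKM of a library still ran from 3974009 to 5401733. The 20 highest genes held 17.8% to 34.5% of that sum, so levels compare only roughly between libraries. Depth in reads is unknown; from the steps in low values the deepest library was estimated at 2.5 times the shallowest. Between 655 and 1260 genes were listed at 0 per library, and log2 values of libraries of 1 strain correlated across genes at 0.842 to 0.949. The step sizes divided the libraries into a set of 12 (3 ∆admA∆admB, 3 ∆admA, 4 ∆admB and 2 Deletion-control) and a set of 8 (2, 2, 1 and 3 in the same order), of unstated origin, which serve below as possible batches. The admA gene (AO090138000114) was at 0 in all 5 ∆admA∆admB libraries and at 0 to 0.092 RPKM in ∆admA libraries, against 0.21 to 3.42 RPKM in ∆admB libraries and 0 to 14.2 RPKM in Deletion-control libraries. Without replicate 5 the Deletion-control libraries had 0 to 0.25 RPKM, so admA was low in most libraries that kept it. The identifier of admB was not paired with a symbol, and its deletion was not checked here. Deletion-control replicate 5, the library with 14.2 RPKM of admA, stood apart from its strain on the first principal component of the other genes, at 83.8 against −67.0 to −28.8 in the other 4. The selection marker pyrG (AO090011000868) was at 13.6 to 48.9 RPKM in ∆admA∆admB, 10.3 to 59.6 RPKM in ∆admA and 14.9 to 53.8 RPKM in ∆admB, against 6.83 to 49.8 RPKM in Deletion-control, where the lowest value was that of replicate 5.

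The alkaline protease gene dominated the group. alpA was the highest of the 4 genes in 20 of 20 libraries and made up 91.8% to 98.7% of their summed RPKM, with a median of 95.4%. Its rank among the 12074 genes of a library lay between 8 and 566, and it held 0.0254% to 0.876% of all RPKM of a library. The acid protease and neutral protease I genes came next and changed places: pepA was above nptA in 12 libraries and below it in 8. Deuterolysin was the lowest of the 4 in 17 libraries. The ratio of the highest to the lowest library was 27.0 for alpA, 137 for pepA, 27.9 for nptA and, over non-zero values, 16800 for nptB.

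In ∆admA∆admB libraries alpA was at 18916.5, 11539, 22797, 7309 and 1314 RPKM (replicates 1 to 5). In ∆admA libraries it was at 19849, 16017, 28421, 7536 and 10316 RPKM. The highest alpA level of a strain without admA was thus that of ∆admA replicate 3, and the lowest of all 20 that of ∆admA∆admB replicate 5. ∆admB libraries held 16441.5, 5306, 3007, 3852 and 5929 RPKM of alpA. Deletion-control libraries held 18344, 8549.9, 35522, 31856.5 and 4924 RPKM. Of the 5 ∆admB libraries 4 lay at 5929 RPKM or below, as did 1 Deletion-control library, and the ranges of all strains overlapped. On the log2(RPKM + 1) scale alpA averaged 13.07 ± 1.65 in ∆admA∆admB, 13.85 ± 0.76 in ∆admA, 12.48 ± 0.94 in ∆admB and 13.91 ± 1.23 in Deletion-control (SD, n = 5 each). From high to low the order was Deletion-control, ∆admA, ∆admA∆admB and ∆admB, and no neighbours in it differed beyond their spread (exact permutation p of 0.44 to 0.91, two-sided). The widest gap, −1.44 between ∆admB and Deletion-control, had an exact permutation p of 0.079, or 0.24 adjusted over the 24 strain pairs tested for the 4 genes. The smallest p was that of the difference of 1.37 between ∆admA and ∆admB, an exact permutation p of 0.048, or 0.22 adjusted.

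The acid protease gene spread more widely within strains than between them. pepA was at 592, 167, 123, 43.0 and 15.2 RPKM in ∆admA∆admB libraries and at 1100.2, 796, 355, 201 and 111 RPKM in ∆admA libraries. In ∆admB libraries it was at 1128, 182, 179, 29.5 and 211 RPKM. In Deletion-control libraries it was at 463, 699, 901, 787 and 8.21 RPKM. In Deletion-control 4 libraries lay within 463 to 901 RPKM and the remaining one was the lowest of all 20, while ∆admA and ∆admB libraries reached the highest levels. Mean log2 levels were 6.61 ± 1.97 in ∆admA∆admB, 8.54 ± 1.36 in ∆admA, 7.56 ± 1.84 in ∆admB and 8.19 ± 2.81 in Deletion-control (SD, n = 5 each), and none of the 6 strain pairs differed at an unadjusted exact permutation p below 0.05.

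Neutral protease I, a zinc metalloprotease, had its highest strain mean in ∆admA. nptA was at 150, 101, 169, 115 and 98.6 RPKM in ∆admA∆admB libraries. It was at 127, 414, 364, 311 and 222 RPKM in ∆admA libraries, of which only replicate 1 lay within the ∆admA∆admB range. ∆admB libraries held 196, 56.7, 61.0, 67.9 and 88.8 RPKM of nptA, and Deletion-control libraries held 110, 24.2, 315, 201 and 14.8 RPKM. The Deletion-control libraries thus ran from below every deletion-strain library to within the ∆admA range. Mean log2 levels were 6.96 ± 0.35 in ∆admA∆admB, 8.06 ± 0.68 in ∆admA, 6.40 ± 0.72 in ∆admB and 6.28 ± 1.88 in Deletion-control (SD, n = 5 each). The difference of 1.66 between ∆admA and ∆admB had an exact permutation p of 0.016, and the difference of −1.10 between ∆admA∆admB and ∆admA one of 0.024; both came to 0.19 adjusted over the 24 pairs.

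Deuterolysin, the other zinc enzyme, was near 0 in most deletion-strain libraries. nptB was at 13.3, 2.81, 43.7, 0.44 and 0.11 RPKM in ∆admA∆admB libraries. It was at 64.6, 1.71, 1.65, 2.40 and 0.18 RPKM in ∆admA libraries, and at 10.8, 0.79, 0.52, 0 and 1.01 RPKM in ∆admB libraries. In Deletion-control libraries nptB was at 30.5, 5.76, 1349, 1868 and 40.2 RPKM. It lay under 3 RPKM in 3 ∆admA∆admB, 4 ∆admA, 4 ∆admB and 0 Deletion-control libraries, and the 2 highest libraries, at 1349 and 1868 RPKM, were Deletion-control libraries. Even so, the ranges overlapped, because replicate 1 of each deletion strain exceeded Deletion-control replicate 2. Mean log2 levels were 2.39 ± 2.26 in ∆admA∆admB, 2.18 ± 2.23 in ∆admA, 1.20 ± 1.37 in ∆admB and 6.87 ± 3.58 in Deletion-control (SD, n = 5 each). Against Deletion-control, the exact permutation p was 0.056 for ∆admA∆admB, 0.040 for ∆admA and 0.016 for ∆admB, and adjusted over the 24 pairs 0.22, 0.22 and 0.19 in the same order.

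**Figure D1:**
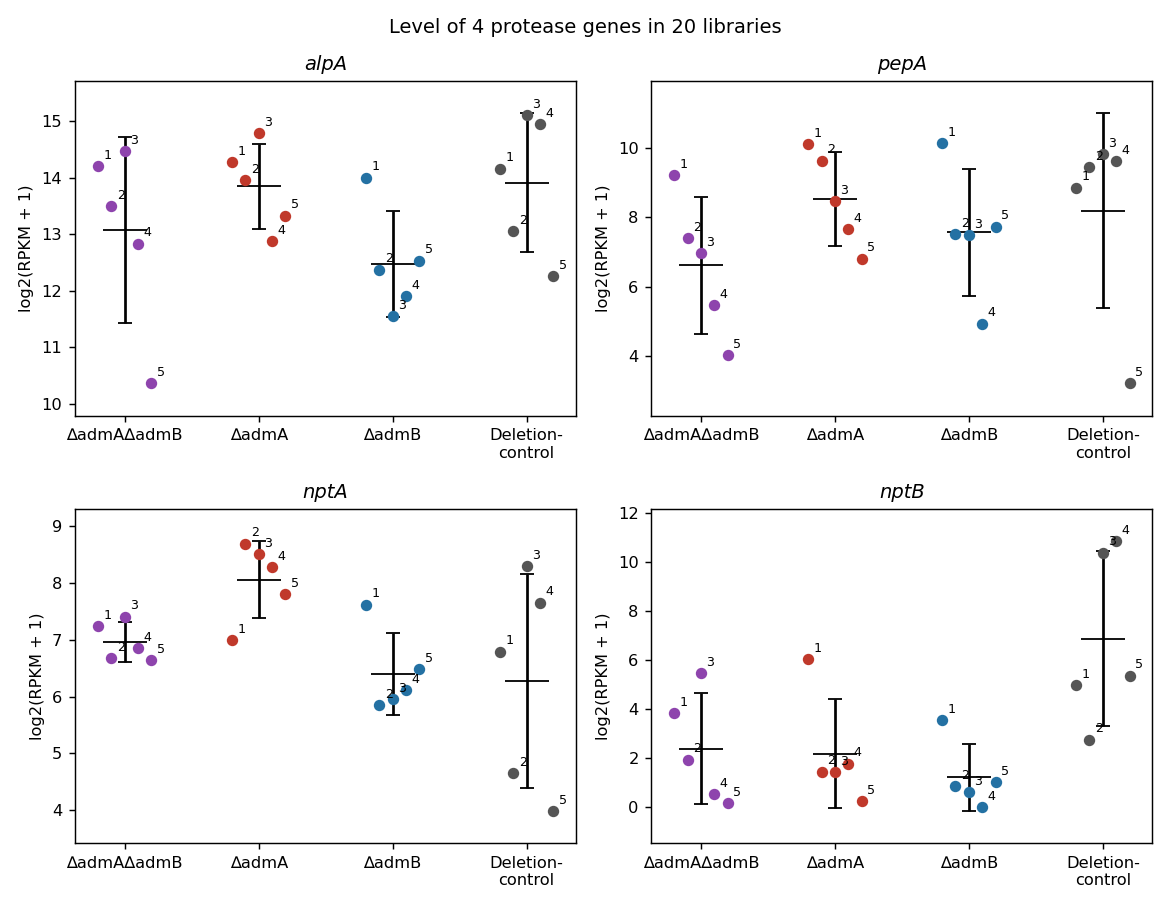
Level of each protease gene in the 20 libraries, as log2(RPKM + 1), by strain. Points are libraries with their replicate number, bars the mean ± SD of 5 libraries; the strains overlap for every gene, and nptB is under 3 RPKM in 11 deletion-strain libraries and in 0 Deletion-control libraries.

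The strains were compared by limma on log2(RPKM + 1) over the 10652 genes that reached 1 RPKM in 5 or more libraries, with Benjamini-Hochberg adjustment over all of them. All 4 protease genes passed this filter, nptB with at least 1 RPKM in 14 libraries. None of the 4 passed an adjusted p of 0.05 in any of 8 comparisons. For ∆admA∆admB against Deletion-control 0% of all tested genes passed (519 genes had an unadjusted p below 0.05, nptB among them). For ∆admA against Deletion-control 1.08% of all genes passed, and 2 of the 4, nptA and nptB, had an unadjusted p below 0.05, as did 1096 genes in all. For ∆admB against Deletion-control 0% passed, and 864 genes, nptB among them, had an unadjusted p below 0.05. Here and below, fewer cells that make a transcript and less of it per cell cannot be told apart in bulk RNA.

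Deuterolysin had the largest estimates of the 4. The limma difference of nptB was −4.49 (SE 1.496) in ∆admA∆admB against Deletion-control, with an unadjusted p of 0.0078 and an adjusted p of 0.966. For ∆admA it was −4.70 (SE 1.496), with an unadjusted p of 0.0058 and an adjusted p of 0.183 in limma, and for ∆admB −5.67 (SE 1.496), unadjusted p = 0.0014 and adjusted p = 0.595. The direction was the same within both library sets, at −3.67 and −4.30 for ∆admA∆admB, −2.49 and −6.58 for ∆admA, and −3.88 and −7.16 for ∆admB. In ∆admA, replicate 1 decided the call: without it the difference was −5.66 and the adjusted p 0.048 in limma. Leaving out that library also raised the calls among all 10652 tested genes, to 307 against 115 with all libraries. The score of a library on the first principal component of the other genes had a median of 12.4 (−69.2 to 81.3) in ∆admA∆admB, 2.80 (−73.9 to 70.4) in ∆admA and 13.2 (−59.5 to 94.3) in ∆admB, against −50.2 (−67.0 to 83.8) in Deletion-control. These ranges overlapped widely, and a difference between strains in this score was not tested. With it as a covariate, the nptB differences from Deletion-control were −3.64, −3.85 and −4.56, with adjusted p of 0.504, 0.091 and 0.274 in limma.

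Neutral protease I had the only other unadjusted p below 0.05 against Deletion-control. Its limma difference was 1.78 (SE 0.65) in ∆admA, with an unadjusted p of 0.014 and an adjusted p of 0.288, against 0.68 (SE 0.65) in ∆admA∆admB and 0.13 (SE 0.65) in ∆admB. For alpA the differences from Deletion-control were −0.84 (SE 0.72) in ∆admA∆admB, −0.06 in ∆admA and −1.44 in ∆admB, where the unadjusted p was 0.062 and the adjusted p 0.627 in limma. For pepA they were −1.58 (SE 1.24), 0.35 and −0.63. The median of the 4 differences was −1.21 in ∆admA∆admB, 0.14 in ∆admA and −1.03 in ∆admB, against −0.012, −0.0021 and −0.0038 over all tested genes. The 4 did not share a direction in any strain: 1 was positive and 3 negative in ∆admA∆admB and in ∆admB, and 2 and 2 in ∆admA. These medians of 4 genes were not tested.

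Between the deletion strains the 4 genes showed no call either. In ∆admA∆admB against ∆admA 1.77% of all genes passed and none of the 4 had an unadjusted p below 0.05; the limma differences were −0.78 for alpA, −1.93 (SE 1.24) for pepA, −1.10 (SE 0.65) for nptA and 0.21 for nptB. In ∆admA∆admB against ∆admB 0% of all genes passed, with 612 at an unadjusted p below 0.05 and none of the 4 among them, and the differences were 0.60, −0.95, 0.56 and 1.18 in the same gene order. Whether losing both genes differed from the sum of losing each was tested as an interaction, in which 0% of all genes passed and 693 had an unadjusted p below 0.05. Of the 4, nptB had one: its interaction was 5.88 (SE 2.12), with an unadjusted p of 0.013 and an adjusted p of 0.620 in limma. For nptB, the differences of both single deletions added to the Deletion-control mean give a log2(RPKM + 1) below 0, a level that this scale cannot take. With nptB near 0 in both single deletions a positive interaction was therefore fixed by the scale, and nothing is read from it.

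**Figure D2:**
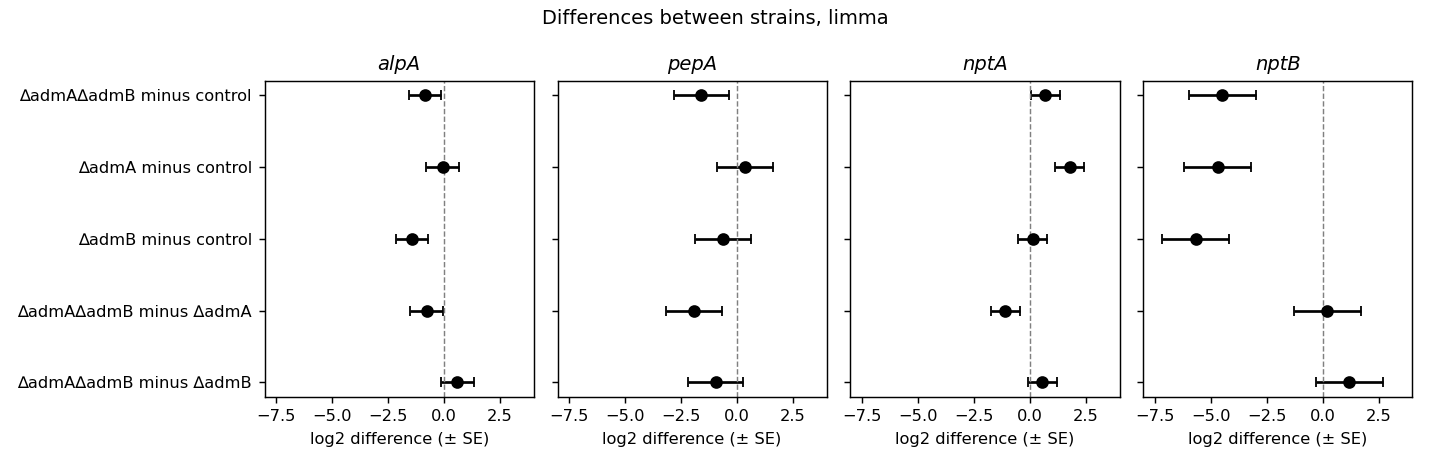
Differences between strains in log2(RPKM + 1) by limma, with bars of ± 1 SE, for the 4 genes and 5 comparisons. The nptB differences from Deletion-control run from −5.67 to −4.49, those of the other 3 genes from −1.58 to 1.78, and none passed adjustment over 10652 genes.

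Pooling strains by genotype gave groups of 10 libraries. Libraries lacking admB held a median of 6619 RPKM of alpA (1314 to 22797), against 17181 RPKM (4924 to 35522) in libraries keeping it. The limma difference was −1.11 (SE 0.51), with an unadjusted p of 0.044 and an adjusted p of 0.367. nptB had a median of 0.903 RPKM (0 to 43.7) in libraries lacking admB, against 18.1 RPKM (0.18 to 1868) in those keeping it, a difference of −2.73 (SE 1.06) with an adjusted p of 0.267 in limma. Across all tested genes 1.22% passed in this comparison, and none of the 4 did. Neutral protease I was the one of the 4 with an unadjusted p below 0.05 by admA genotype: nptA had a median of 159 RPKM (98.6 to 414) without admA, against 78.3 RPKM (14.8 to 315) with it, a difference of 1.17 (SE 0.46) and an adjusted p of 0.388 in limma. By admA genotype 0% of all genes passed, with 1056 at an unadjusted p below 0.05. The groups of 10 overlapped for every one of these genes.

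Within a library, some ratios between the proteases differed between a deletion strain and Deletion-control. How often ratios of other gene pairs did so was not computed, so the count cannot be called particular to the proteases. The log2 ratio of (RPKM + 1) of 2 genes of the same library does not depend on how that library was scaled, apart from the added 1. All 6 ratios were compared between each deletion strain and Deletion-control, 18 exact permutation tests in all, of which 11 had an unadjusted p below 0.05 and 4 an adjusted p below 0.05. The same 4 were those whose ranges did not overlap, which with 5 libraries against 5 gives the smallest exact p possible, 0.0079, here 0.036 after adjustment over the 18. The 3 strains shared the same Deletion-control libraries in these tests. With 1 library left out the smallest exact p possible is 0.0159, so that the 3 called in ∆admB were lost without any 1 of the 5 ∆admB libraries, and nptA over nptB in ∆admA∆admB was lost in 13 of 20 such tests (adjusted exact permutation p of 0.057 to 0.071). Other ratios passed only with 1 library left out. Without Deletion-control replicate 2 they were alpA over nptB in ∆admA∆admB (4.46, adjusted exact permutation p 0.041), and in ∆admA alpA over nptB (5.45, adjusted 0.048), pepA over nptB (6.39, adjusted 0.029) and nptA over nptB (7.10, adjusted 0.048). In ∆admB pepA over nptB passed without the same library (6.38, adjusted exact permutation p 0.029). Without ∆admA replicate 1 they were, in ∆admA, alpA over nptA (−2.22, adjusted exact permutation p 0.024), alpA over nptB (5.49, adjusted 0.041) and nptA over nptB (7.71, adjusted 0.024).

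In 3 of the 4 the ratio held nptB, which was near 0 in most deletion-strain libraries and did not pass by itself. These 3 ratios are therefore not independent of each other. The log2 ratio of nptA over nptB was 3.40, 4.74, 1.93, 6.33 and 6.49 in ∆admA∆admB libraries and 4.06, 5.01, 5.35, 6.11 and 5.48 in ∆admB libraries. In Deletion-control libraries it was 1.82, 1.90, −2.10, −3.21 and −1.38, below every library of those deletion strains, though by a margin of only 1.93 against 1.90 for ∆admA∆admB. Mean ratios were 4.57 ± 1.95 in ∆admA∆admB and 5.20 ± 0.75 in ∆admB, against −0.60 ± 2.33 in Deletion-control (SD, n = 5 each), so the differences were 5.17 and 5.80 (adjusted exact permutation p = 0.036 each). In ∆admA the ratio was 0.96, 7.26, 7.11, 6.52 and 7.57, of which replicate 1 lay within the Deletion-control range and the other 4 above every library of the 2 other deletion strains. Its difference of 6.48 had an exact permutation p of 0.024, or 0.063 adjusted. Within the sets of 12 and 8 libraries the differences were 5.19 and 4.47 in ∆admA∆admB, and 5.03 and 6.15 in ∆admB, the last with 1 ∆admB library.

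The alkaline protease gene likewise stood higher against deuterolysin in ∆admB. The log2 ratio of alpA over nptB was 10.44, 11.53, 10.95, 11.91 and 11.53 in ∆admB libraries, against 9.19, 10.31, 4.72, 4.09 and 6.90 in Deletion-control libraries. All ∆admB libraries lay above all Deletion-control libraries, by a difference of means of 4.23 (adjusted exact permutation p = 0.036), or 3.16 and 5.16 within the 2 library sets. With 10 in place of 1 added to each RPKM the difference was 2.22 and the adjusted exact permutation p 0.155; 4 of 5 ∆admB libraries had 1.01 RPKM of nptB or less.

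Against neutral protease I, alpA stood lower in ∆admB. The log2 ratio of alpA over nptA was 6.39, 6.52, 5.60, 5.80 and 6.05 in ∆admB libraries, against 7.37, 8.41, 6.82, 7.30 and 8.29 in Deletion-control libraries. Means were 6.07 ± 0.39 in ∆admB and 7.64 ± 0.68 in Deletion-control (SD, n = 5 each), a difference of −1.56 (adjusted exact permutation p = 0.036), and within the library sets −1.87 and −0.99. Each of these ∆admB libraries thus had fewer alpA transcripts per nptA transcript than any Deletion-control library, while neither gene passed by itself. The ratio also averaged lower in ∆admA∆admB (6.11 ± 1.40) and in ∆admA (5.79 ± 1.03), with adjusted exact permutation p of 0.063 and 0.057. With all libraries, the 3 ratios with pepA did not pass in any strain (smallest adjusted exact permutation p 0.063, for pepA over nptB in ∆admB).

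**Figure D3:**
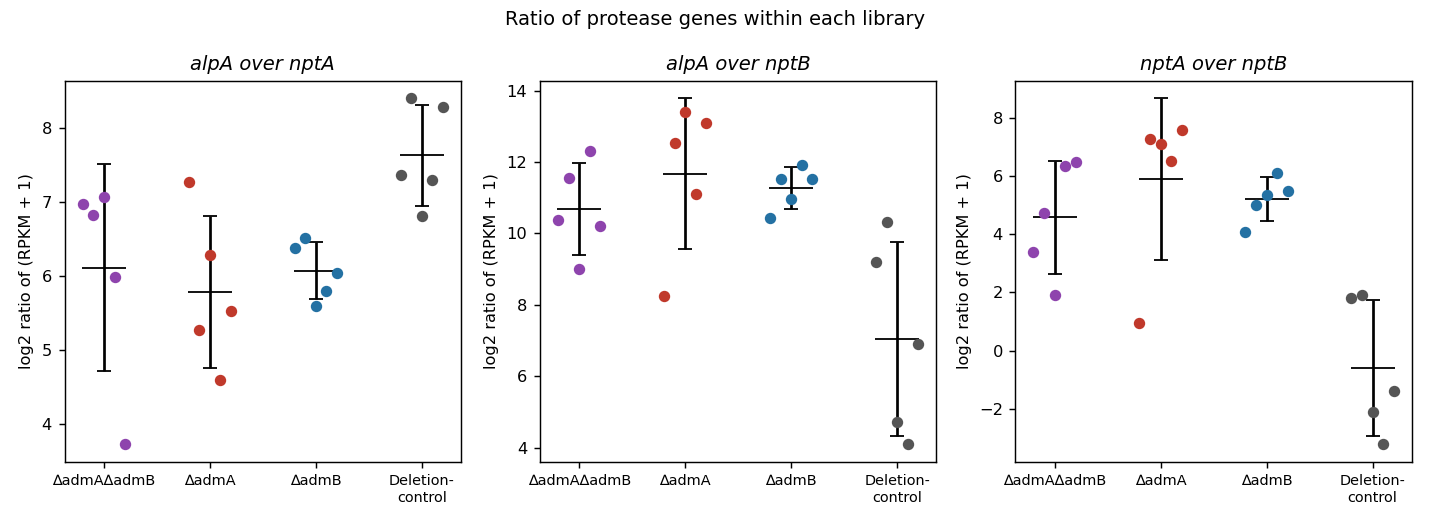
Log2 ratios of (RPKM + 1) between protease genes of the same library, by strain, with the mean ± SD of 5 libraries. Deletion-control is above all ∆admB libraries for alpA over nptA and below all of them for alpA over nptB and nptA over nptB.

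The proteases varied together over the 20 libraries, with the alkaline protease at the centre. Pearson's r of log2(RPKM + 1) between alpA and pepA was 0.73 (permutation p adjusted over 6 pairs 0.00156) and Spearman's rho 0.68 (adjusted 0.00306). alpA and nptB gave r = 0.67 (permutation p adjusted 0.00384) and rho = 0.74 (adjusted 0.0021). For alpA and nptA, r was 0.57 (permutation p adjusted 0.0174) and rho 0.70 (adjusted 0.00276). These 3 relations did not rest on extreme libraries: without the 2 libraries farthest from the median of alpA, r was 0.70 with pepA, 0.66 with nptB and 0.64 with nptA. They were also present with strain means removed, at r = 0.76, 0.70 and 0.65 in the same order (permutation p adjusted 0.00144, 0.0036 and 0.0033). They no longer passed with the mean of each replicate number removed and values exchanged only among libraries of that number, at r = 0.62 with pepA, 0.63 with nptB and 0.51 with nptA (permutation p adjusted 0.074 each). For pepA, libraries numbered 1 and 5 were apart in every strain. It was at 463 to 1128 RPKM in the 4 libraries numbered 1 and at 8.21 to 211 RPKM in the 4 numbered 5. Other numbers spread widely across strains: pepA was at 29.5 to 787 RPKM in the 4 numbered 4. alpA was at 3007 to 35522 RPKM in the 4 numbered 3. What libraries of a number have in common is not stated in the labels, and the pooled permutation p do not take it into account.

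Among the other 3 genes the relations were weaker. pepA and nptA had r = 0.49 (permutation p adjusted 0.0429) and rho = 0.47 (adjusted 0.0481), but r was 0.26 without the 2 libraries farthest from the median of pepA and 0.27 without Deletion-control replicate 5 alone, so the relation rested on such libraries. pepA and nptB passed by rho, 0.58 (permutation p adjusted 0.0132), and not by r, 0.43 (adjusted 0.0637). nptA and nptB had r = 0.15 and rho = 0.24 (permutation p adjusted 0.527 and 0.31). With strain means removed, the r of these 2 zinc protease genes was 0.56 (permutation p adjusted 0.0956), and with number means removed −0.0044 (adjusted 0.985). In ∆admA, replicate 1 had the lowest nptA of that strain, 127 RPKM, and its highest nptB, 64.6 RPKM. With number means removed, pepA and nptA had r = 0.54 (permutation p adjusted 0.074) and pepA and nptB r = 0.40 (adjusted 0.228).

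Within the library sets the 6 values of r were 0.78, 0.42, 0.65, 0.60, 0.42 and −0.20 in the set of 12 libraries, and 0.37, 0.78, 0.70, 0.24, 0.44 and 0.29 in the set of 8, for alpA with pepA, nptA and nptB, pepA with nptA and nptB, and nptA with nptB. The relation of alpA with nptB was therefore of like size in both sets, while that with pepA was larger in the set of 12 and that with nptA in the set of 8; whether the sets differed in this was not tested. The set of 8 held more alpA than the set of 12, by 1.17 in log2 (exact permutation p 0.036, adjusted over the 4 genes 0.145).

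**Figure D4:**
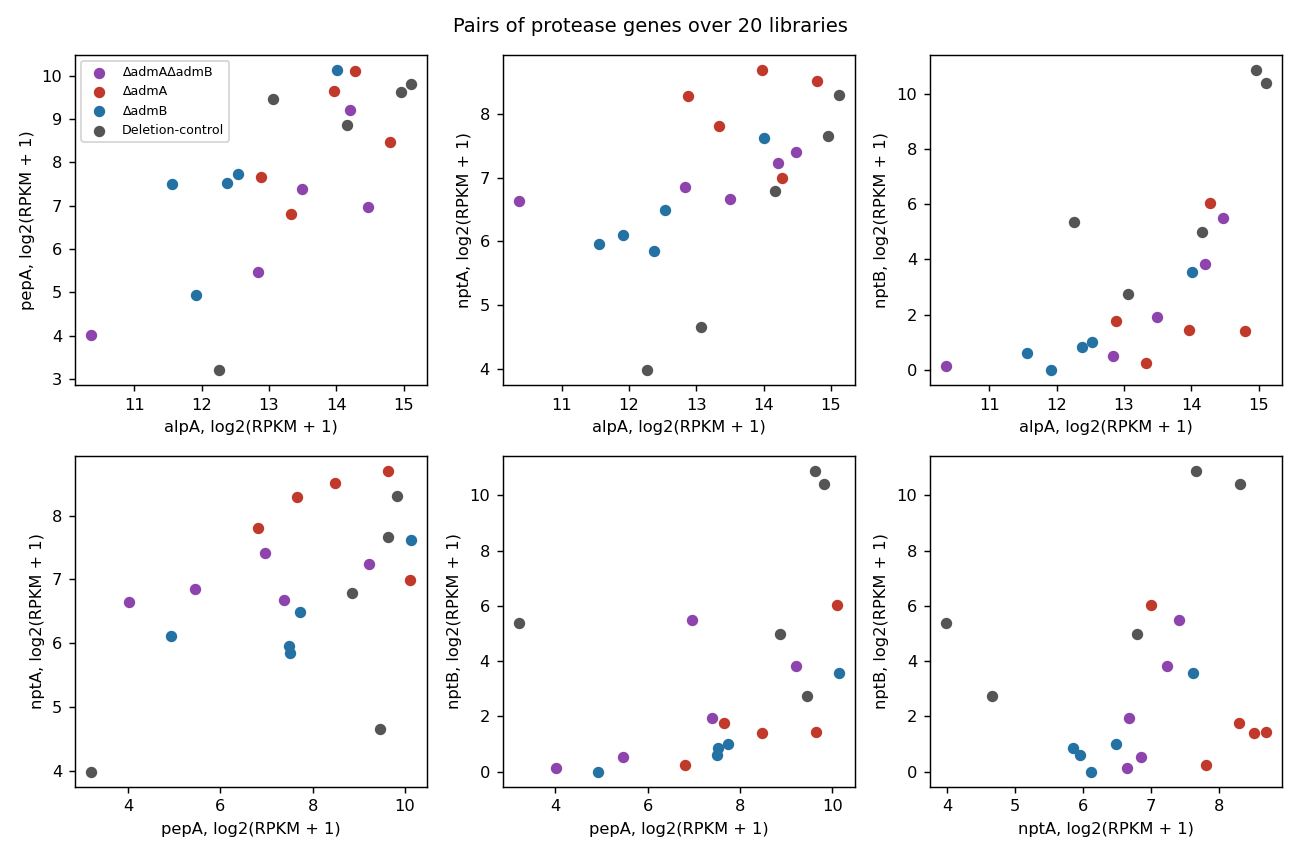
Pairs of the 4 protease genes over 20 libraries, as log2(RPKM + 1), with strains in colour. In the 3 alpA panels the points rise together (r = 0.73, 0.57 and 0.67), and in the panel of nptA and nptB they scatter (r = 0.15).

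How close these relations were relative to the rest of the transcriptome differed by gene. From the side of nptA, 149 of the other 10651 tested genes (1.40%) had a higher rho with it than alpA did, and from the side of nptB 206 genes (1.93%) did. From the side of alpA, 852 genes (8.0%) were more like it than nptA, 620 (5.82%) more than nptB and 975 (9.15%) more than pepA. alpA was thus a close neighbour of both neutral protease genes in these libraries, but not they of alpA, which had many genes alike. Spread within strains differed too: the residual SD in log2 was 1.19 for alpA, 2.06 for pepA, 1.08 for nptA and 2.49 for nptB, against a median of 0.589 over all genes, and 5.92% of genes spread more than pepA and 2.94% more than nptB.

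Of the 4 genes, 3 were related to the main axis of variation of the libraries. The share of all tested genes as strongly related to it was not computed, so this is not shown to be particular to the proteases. The first principal component of the tested genes without the 4 held 27.0% of the variance. Its sign, which is arbitrary, was set so that higher scores go with more genes listed at 0. Its r was −0.85 with pepA (permutation p adjusted over 16 relations 0.00016, rho −0.79), −0.77 with alpA (adjusted 0.000373, rho −0.81) and −0.65 with nptB (adjusted 0.00616, rho −0.76). With nptA it was −0.33 (permutation p adjusted 0.275). Without the 2 libraries of most extreme score, r was −0.80, −0.74 and −0.76 for pepA, alpA and nptB. The score also went with replicate number, at −73.9 to −50.3 in the 4 libraries numbered 1 and 20.97 to 83.8 in the 4 numbered 5. With number means removed r was −0.70, −0.67 and −0.77 in the same order (permutation p adjusted over the 4 genes 0.0201, 0.0231 and 0.0231). The number of genes at 0 was likewise related to pepA (r = −0.80, permutation p adjusted 0.000373) and alpA (r = −0.63, adjusted 0.00915). No relation to estimated relative depth passed (r from −0.06 to 0.37 over the 4 genes, permutation p adjusted 0.219 or more). The estimates may be well off in some libraries, so a relation to true depth was not tested. pepA and this axis were related in the larger library set (r = −0.91) and less so in the smaller (r = −0.30), a difference that was not tested.

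**Figure D5:**
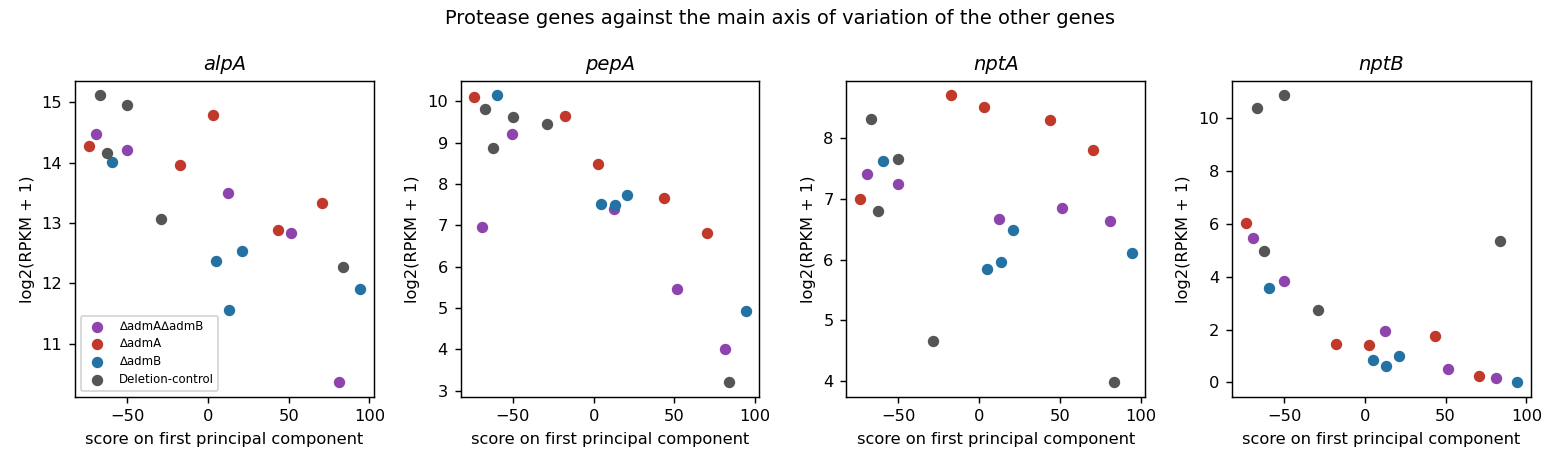
Level of each protease gene, as log2(RPKM + 1), against the score of the library on the first principal component of the other tested genes (27.0% of variance). alpA, pepA and nptB fall with the score (r = −0.77, −0.85 and −0.65) and nptA less clearly (r = −0.33), in libraries of all 4 strains.

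Conidiating cells, which a solid culture also holds, were followed by 7 matched genes of 21 listed symbols. Their summed RPKM was 299 to 1822 in ∆admA∆admB, 469 to 2037 in ∆admA, 228 to 389 in ∆admB and 317 to 1068 in Deletion-control. The sum was mostly medA, a developmental regulator (mean 302 RPKM), and ayg1, a gene of conidial pigment synthesis (mean 338 RPKM, median 2.01). brlA, the central regulator of conidiation, was at 0.476 to 90.2 RPKM, and wetA, which acts late in conidia, at 8.98 to 16.4 RPKM. None of the 6 tested conidiation genes passed in any limma comparison, and no relation of the summed level to the 4 protease genes passed (r from −0.13 to 0.09, permutation p adjusted 0.88 or more).

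Named genes most like each protease were sought by Spearman's rho among the 662 tested genes with a symbol and a mean of at least 10 RPKM, and are given as descriptions over 20 libraries. Nearest to alpA were phzA (0.87), afeA (0.87) and ctpA (0.86), and most opposed were cpa1 (−0.91), the small chain of the arginine-specific carbamoyl phosphate synthase, and rip1 (−0.88), the Rieske protein of the respiratory chain. Nearest to pepA were optB (0.80), an oligopeptide transporter, mvd1 (0.80), an enzyme of the mevalonate pathway, and pgmA (0.79). Opposed to pepA were srgA (−0.84), a Rab-type GTPase of the secretory pathway, and yaf9 (−0.83), a subunit of chromatin complexes. The transporter gene optB itself ranged from 0.360 to 69.7 RPKM, with a median of 14.9.

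The neutral protease genes had neighbours of their own and some in common with alpA. Nearest to nptA were gmdA (0.79), acuF (0.78), the phosphoenolpyruvate carboxykinase of gluconeogenesis, and chsF (0.75), a chitin synthase. Most opposed to nptA were cpa1 (−0.78), as for alpA, and lysF (−0.77), homoaconitase of lysine synthesis. Nearest to nptB were afeA (0.82) and ctpA (0.80), which were also 2 of the 3 nearest to alpA, and tcsC (0.79), a histidine kinase. Most opposed to nptB were htz1 (−0.80), histone H2A.Z, and coaT (−0.80).

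Other peptidases and known or proposed regulators of protease genes were read from symbol lists, of which 6 of 67 peptidase symbols and 13 of 40 regulator symbols were matched. None of the 19 genes passed an adjusted p of 0.05 in any of the 8 limma comparisons, and the median difference of the peptidases lay between −0.27 and 0.07. The 4 peptidases with the highest means were ampp (819 RPKM), cpdS (376 RPKM), lap1, a leucine aminopeptidase (283 RPKM), and dapB, a dipeptidyl aminopeptidase of the vacuole (137 RPKM). Of the peptidases, cpdS came nearest to a call: it had a median of 197 RPKM in ∆admA∆admB and 258 RPKM in ∆admA, against 584 RPKM in ∆admB and 333 RPKM in Deletion-control, and by admA genotype a difference of −1.30 (SE 0.53, unadjusted p 0.024, adjusted p 0.401 in limma). Highest among the regulators were cpcA (1240.1 RPKM), the transcription factor of the response to amino acid starvation, flbB (1190.2 RPKM), a bZIP factor of development, pacC (644 RPKM), the factor of the response to ambient pH, and nsdD (262 RPKM), a GATA factor of development. flbB averaged 888 ± 870 RPKM in ∆admA∆admB and 862 ± 340 RPKM in ∆admA, against 1433 ± 218 RPKM in ∆admB and 1579 ± 294 RPKM in Deletion-control (SD, n = 5 each), and its difference by admA genotype was −1.22 (SE 0.43, unadjusted p 0.011, adjusted p 0.298 in limma).

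Over the libraries, 23 of the 76 relations between the 4 proteases and these 19 genes passed by both r and rho after adjustment: 9 with alpA, 9 with pepA, 0 with nptA and 5 with nptB. This is to be read against all genes: an r as strong as the weakest that passed was held with alpA by 28.5% of tested genes and 47.4% of the listed ones, with pepA by 32.8% and 52.6%, with nptB by 18.2% and 31.6%, and with nptA by 7.84% and 0%. Of the genes named above, ampp was related to alpA (r = 0.57, permutation p adjusted 0.0307) and pepA (r = 0.61, adjusted 0.0184), nsdD to alpA (r = 0.53, adjusted 0.0486) and nptB (r = 0.63, adjusted 0.0148), and pacC inversely to pepA (r = −0.65, adjusted 0.0127). Within the larger and the smaller library set, r was 0.75 and 0.02 for ampp with alpA, 0.70 and 0.08 for ampp with pepA, and −0.69 and −0.14 for pacC with pepA, whereas nsdD had 0.60 and 0.87 with alpA and 0.76 and 0.76 with nptB. cpcA, flbB, cpdS, lap1 and dapB had no relation with any of the 4 that passed by both measures. For all 76 relations the permutation p exchanged libraries freely, regardless of strain and replicate number. Relations with number means removed were not computed for these genes.

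Another 4 listed genes were chosen after their values were seen, and their permutation p carry the same limit. kexB, the Kex2-type protease that processes secretory precursors, was lower where alpA, pepA and nptB were higher, within a range of 36.3 to 59.1 RPKM. Its r was −0.71 with alpA, −0.76 with pepA and −0.61 with nptB (permutation p adjusted 0.0063, 0.00247 and 0.0164). In the smaller library set these values of r were −0.68, −0.26 and −0.70. Of tested genes 7.99%, 7.90% and 8.77% were as strongly related, in the same order. With nptA, kexB had r = −0.50, which did not pass (permutation p adjusted 0.0686). veA, a velvet protein of light-dependent development, was higher with alpA, pepA and nptB. Its r was 0.75, 0.74 and 0.57 (permutation p adjusted 0.00247, 0.00319 and 0.0287), and in the smaller library set 0.33, 0.03 and 0.45. Of tested genes 5.32%, 9.1% and 13.4% were as strongly related over all libraries. With nptA, veA had r = 0.25 (permutation p adjusted 0.435). Among the 76 relations the highest r was that of fluG, an early developmental regulator, with pepA (r = 0.82, rho = 0.73, permutation p adjusted 0.00038 for r), which 2.96% of tested genes matched in strength; it was 0.89 in the larger library set and 0.26 in the smaller. The lowest was that of creB, a deubiquitinating enzyme of carbon catabolite repression, with nptB (r = −0.83, rho = −0.72, permutation p adjusted 0.00038 for r). Only 0.169% of tested genes were as strongly related to nptB, and r was −0.73 and −0.95 within the 2 library sets and −0.73 without the 2 libraries farthest from the median of creB. creB ranged from 21.1 to 47.2 RPKM, with a median of 39.3 RPKM in ∆admA∆admB, 36.0 RPKM in ∆admA and 33.9 RPKM in ∆admB, against 25.1 RPKM in Deletion-control, and did not pass in any limma comparison.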

How the data were processed

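Messenger RNA was measured by sequencing TruSeq libraries made from 4 µg of total RNA, 5 for each of 4 strains. Per the file headers, the deposited values are RPKM, computed by the authors. The submitters' processing notes name Cufflinks 2.1.1, TopHat2 2.0.9, FastQC 0.10.1 and CASAVA 1.8.2. Parameters, genome build, annotation and use of strand are not given in these sources. RPKM are not counts, so no count model was fitted.

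Values were used as log2(RPKM + 1), on which scale a difference understates the change of low genes. Genes that reached 1 RPKM in 5 or more libraries entered limma 3.58.1 (R 4.3.3; one mean per strain, all 20 libraries, eBayes with trend), with Benjamini-Hochberg adjustment within each comparison and a threshold of 0.05; the fit was tested on simulated data. Single genes and ratios were compared by two-sided exact permutation, groups of 10 and correlations by 100000 permutations (scipy 1.17.1). Relative depth and library sets were read from the value steps of genes below a mean of 1.5 RPKM. All 12074 identifiers matched the RefSeq table, 714 with a symbol.

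The 4 genes, the lists and the comparisons were chosen with earlier results of these data known. Named genes were the 4, admA, pyrG, the 3 most and 2 least alike to each, and the 4 highest of each list. Also named were kexB, veA, fluG and creB, which were chosen after their values were seen. Relatives by protein sequence were not analysed here. Added after seeing the data were the first principal component as a covariate, the pair ∆admA and ∆admB, relations to the listed genes, and correlations with the means of replicate numbers removed.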

Additional observations from a re-analysis of the deposited data

Results flagged for a closer look

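In each strain the highest and the lowest of the 5 libraries were checked for a gap to the next library that was wide against the whole range (Dixon's test at 95%), for the 4 genes and the 6 ratios, 40 groups in all. Chance marks about 1 in 20 groups, and 5 were marked here. The acid protease gene pepA was far lower in Deletion-control replicate 5, at 8.21 RPKM, than in the other 4 Deletion-control libraries. That library also had the lowest nptA of all 20, 14.8 RPKM, and the most extreme score of its strain on the first principal component, 83.8.

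Deuterolysin was far higher in replicate 1 of both single deletions than in the other 4 libraries of the strain: nptB was at 64.6 RPKM in ∆admA replicate 1 and at 10.8 RPKM in ∆admB replicate 1. The same ∆admA library had the lowest log2 ratio of nptA over nptB of its strain, 0.96. In ∆admB, replicate 4 had the lowest log2 ratio of pepA over nptB, 4.93. Its pepA, 29.5 RPKM, was the lowest of that strain. nptB was listed at 0 there, which by itself raises the ratio. What set these libraries apart was not tested.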

How the results depend on the processing

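All 4 proteases missed the threshold in all 8 comparisons under every alternative except as follows. Sample quality weights called nptB in ∆admA (−6.02, adjusted p 0.0119 in limma) and ∆admB (−6.78, 0.0182) and by admB genotype (−3.07, 0.049), and alpA in ∆admB (−2.11, 0.0348) and by admB genotype (−1.46, 0.036). The first principal component as a covariate, added after seeing the data, called pepA in ∆admA∆admB against ∆admA (−1.93, 0.0496). Without ∆admA replicate 1, nptB passed in ∆admA (−5.66, 0.0478), where 307 genes in all then passed. Weights also raised the genes called to 686 in ∆admA, 746 in ∆admB and 959 by admB genotype, and that component to 355, 1 and 480, against 115, 0 and 130; a fit of only the libraries compared called 2 in ∆admA. In ∆admA∆admB against ∆admA these 3 settings gave 411, 521 and 1, against 189, and 1 library set alone called at most 36 in any comparison. Leaving out 1 library gave 24 to 307 in ∆admA, 98 to 307 in ∆admA∆admB against ∆admA and 40 to 255 by admB genotype; without ∆admA replicate 1 the interaction had 66 and admA genotype 165, against 0. Equal sums put the median difference of all genes at −0.11 by admB genotype, where 34 calls were then higher and 92 lower, against 63 and 67.

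Directions of uncalled differences turned in these cases, with Deletion-control as the base unless another is named. In the library set of 12, pepA was 0.20 in ∆admA∆admB and 1.54 in ∆admB, alpA 0.28 in ∆admA and −0.034 in ∆admA∆admB against ∆admB, nptB −1.17 in ∆admA∆admB against ∆admA, the alpA interaction −0.32, pepA by admA genotype 0.41 and nptA by admB genotype 0.18. In the set of 8, alpA was 0.0018 and pepA −0.57 in ∆admA, nptA −1.02 in ∆admB and the pepA interaction 0.23. alpA in ∆admA was 0.038 by quantile normalization, 0.13 with library set as a covariate and 0.42 with the first component, with which pepA was 0.62 in ∆admB and 0.016 by admA genotype. Weights gave −0.43 for pepA in ∆admA and −0.72 for nptA in ∆admB, and equal sums −0.0089 for the last. The causes were not tested.

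Leaving out each library in turn moved the difference of alpA in ∆admA between −0.47 and 0.24, pepA in ∆admA between −0.90 and 0.78 and in ∆admB between −1.88 and 0.029, nptA in ∆admB between −0.45 and 0.63, nptB in ∆admA between −5.72 and −3.70 and in ∆admA∆admB against ∆admA between −0.57 and 1.17, and pepA by admA genotype between −0.93 and 0.020. Ratios ranged as follows in ∆admB: alpA over pepA −1.34 to 0.026, alpA over nptA −1.77 to −1.37, alpA over nptB 3.49 to 5.05, pepA over nptB 4.17 to 6.38 and nptA over nptB 5.14 to 6.42. In ∆admA they ranged from −0.94 to 0.43, −2.22 to −1.54, 3.89 to 5.49, 4.17 to 6.39 and 5.82 to 7.71 in the same order, and in ∆admA∆admB alpA over nptB from 2.91 to 4.46 and nptA over nptB from 4.52 to 5.83. With 10 added to each RPKM, alpA over nptB in ∆admB was 2.22 and no longer passed.

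Among correlations, r of pepA and nptA lost the threshold on raw RPKM (0.36), at equal medians (0.44), within either library set (0.60 and 0.24) and without the 2 farthest libraries (0.26), and ranged from 0.27 to 0.65 with 1 library left out. r of pepA and nptB passed with strain means removed (0.53) and without the 2 farthest libraries (0.61), and ranged from 0.37 to 0.62 with 1 left out. In the smaller sets of libraries alpA lost it with pepA (0.37 in the set of 8), nptA (0.42 and 0.78) and nptB (0.65 and 0.70), and nptA with nptB turned to −0.20 in the set of 12. With strain means removed, r with the summed conidiation genes was −0.29 for alpA and −0.38 for nptA.

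The labels number the libraries 1 to 5 in every strain. Same-numbered libraries deviated together in 19 of 30 pairs by a correlation over 0.1 (median 0.154, range −0.225 to 0.517). The numbers were therefore not taken to pair the libraries. Pairs of unlike number had a median of −0.0377 (−0.495 to 0.481). Of 60 best matches, each sought among the 5 libraries of another strain, 35 were of the same number. By these values libraries of a number had something in common, which the labels do not name. The main limma fit and the exact permutation tests of strains and ratios did not take the numbers into account. With number means removed, a replicate block for the correlations added after seeing the data, alpA lost the threshold with pepA (0.62), nptA (0.51) and nptB (0.63), pepA lost it with nptA (0.54), and nptA with nptB turned to −0.0044. With the replicate block, genes called were 201 in ∆admA, 289 in ∆admA∆admB against ∆admA and 224 by admB genotype, none of them one of the 4 proteases. Unknown read depth leaves the counting error of nptB, near 0 in 11 libraries, without a value.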
